A study of Drosophila melanogaster with 2 samples.

Results

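The salivary gland secretion genes Sgs1, Sgs3, Sgs4, Sgs5, Sgs5bis, Sgs7 and Sgs8 encode glue proteins of the Drosophila larva. These 7 genes were taken by symbol from the Ensembl annotation, out of 13945 protein-coding genes of the main chromosome arms, and every chromatin immunoprecipitation (ChIP-seq) region with its summit within 2 kb of a glue gene was collected. The samples were biological replicates 3 and 4 of whole wandering larvae of the third instar, of both sexes, from a Drosophila melanogaster line with a stable transgene for Sage fused at its C-terminus to GFP. The same transgenic line gave both replicates, which were precipitated with an antibody against GFP and form 1 group. The labels do not state what drives the transgene or whether the native sage gene was intact. With region lists alone, the presence of gland tissue could not be checked against marker genes.

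Glue proteins are mucin-like or small cysteine-rich secreted proteins that the larval salivary gland stores in granules and releases to fix the pupal case to its support. Their genes are switched on by ecdysone late in larval life through its receptor and the Broad factor. The forkhead factor Fkh is also active in the gland. Sage is a basic helix-loop-helix factor of the salivary gland, known to act with Fkh, and factors of its class bind E-boxes (CANNTG). Sites of forkhead factors hold a core that can be written TGTTTNC.

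The genes lie at 4 loci. Sgs1 stands alone on 2L (4937409 to 4941423, dm6). Sgs8 (11508967 to 11509394, minus strand), Sgs7 (11509861 to 11510247) and Sgs3 (11512221 to 11513402) form a cluster on 3L, in which Sgs7 and Sgs8 point away from each other across 466 bp. Sgs4 (X 3250089 to 3251040) lies inside an intron of dnc, the cAMP phosphodiesterase gene. Sgs5bis (17594386 to 17595057) and Sgs5 (17595362 to 17596112) follow each other on 3R. All but Sgs8 are on the plus strand, and each has 1 annotated transcript.

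The sequences around the summits upstream of Sgs1, Sgs4 and Sgs5 show the letters under 3 of the 4 upstream regions described next, each found in the pooled list and in both replicates. Each line gives the plus strand of the RefSeq Release 6 genome, 5′ to 3′, for 100 bp on either side of the pooled summit; that of Sgs5 ends at the last base before the transcription start site (TSS). Capitals mark matches to an E-box or to the forkhead core on either strand. The last line, for contrast, is the middle of the stretch between Sgs8 and Sgs7, where no list had a summit.
Sgs1, chr2L:4937150-4937350: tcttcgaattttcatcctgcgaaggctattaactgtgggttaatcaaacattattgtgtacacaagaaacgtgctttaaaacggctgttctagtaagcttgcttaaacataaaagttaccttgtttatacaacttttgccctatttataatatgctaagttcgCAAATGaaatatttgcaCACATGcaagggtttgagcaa
Sgs4, chrX:3249655-3249855: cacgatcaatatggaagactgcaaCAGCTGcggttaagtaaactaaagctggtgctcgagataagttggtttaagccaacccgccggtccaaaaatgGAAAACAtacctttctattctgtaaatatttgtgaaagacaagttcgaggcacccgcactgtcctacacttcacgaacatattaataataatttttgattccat
Sgs5, chr3R:17595180-17595361: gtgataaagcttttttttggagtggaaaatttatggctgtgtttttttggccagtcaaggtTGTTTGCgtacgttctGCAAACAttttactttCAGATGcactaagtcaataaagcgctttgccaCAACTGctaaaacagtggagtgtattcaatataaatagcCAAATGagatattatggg
Sgs7-Sgs8, chr3L:11509527-11509727: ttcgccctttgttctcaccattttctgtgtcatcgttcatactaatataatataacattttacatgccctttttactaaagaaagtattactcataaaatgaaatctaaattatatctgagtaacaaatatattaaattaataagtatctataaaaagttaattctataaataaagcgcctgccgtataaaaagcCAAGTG

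None of the 7 glue genes had a peak of the IDR list within 2 kb, where 22.9% of all protein-coding genes had 1. The IDR list is named for the irreproducible discovery rate, a measure of agreement between replicates, and its regions were also the strongest of the 30000 in the list made from the pooled replicates. The exact 95% interval of 0 of 7 reaches up to 41.0%. At this number of genes, a share like that of other genes was thus not distinguishable from the observed 0. The interval takes the genes as independent draws. They lie at 4 loci and were chosen with earlier results known, so it is only a rough guide. In the longer lists, which hold peaks and background regions and from which the IDR list was drawn, glue genes were present. Within 2 kb, 6 of 7 had a pooled region (all but Sgs8), against 60.3% of all protein-coding genes. The same 6 had a region in both replicates, against 54.9%. The exact 95% interval of 6 of 7, 42.1% to 99.6%, held both of these shares and is as rough a guide. The region within 2 kb of Sgs5 and Sgs5bis is 1 region, and so is that of Sgs3 and Sgs7, so these counts rest on 4 loci. A whole larva was used, so the share of gland chromatin in the sample and the binding per gland cannot be told apart.

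At each of the 4 loci the pooled list had 1 region just upstream of a glue gene, and both replicates had it too. These lists also hold background regions, so presence in them does not by itself show binding. A deposited value that no header names was read as −log10 q from the layout of the lists. A higher value stands for a lower q-value. In the pooled list it was 1.78 for Sgs5, 1.18 for Sgs4, 0.93 for Sgs1 and 0.63 for Sgs3. In that order it was 1.79, 1.06, 0.75 and 0.64 in replicate 3. In replicate 4 it was 1.17, 0.54, 1.09 and 0.15. The Sgs5 summit lay 82 bp upstream of the TSS in the pooled list, 81 bp in replicate 3 and 112 bp in replicate 4. That of Sgs1 lay 159 bp upstream in the pooled list, 172 bp in replicate 3 and 133 bp in replicate 4. For Sgs4 these distances were 334, 356 and 309 bp, and for Sgs3 they were 368, 368 and 382 bp. The summits of both replicates were thus 14 to 47 bp apart at the 4 loci. Over the 6771 pooled regions of like rank (3325 to 11105) that both replicates had, the median was 67 bp, with quartiles of 23 and 148 bp. Summits sit in the middle of the region in 98.2% of the pooled list, so they mark the centre of windows of about 390 bp and not a single base.

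A summit within 500 bp upstream of the TSS in the pooled list and in both replicates was thus present at Sgs1, Sgs3, Sgs4 and Sgs5, 4 of 7 glue genes, where 17.3% of all protein-coding genes had 1. This distance was chosen after the positions had been seen, so the count describes these genes and is not a test. Sgs5bis, Sgs7 and Sgs8 had no such region. In the 466 bp between Sgs7 and Sgs8 neither the pooled list nor either replicate had a summit.

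**Figure D1:**
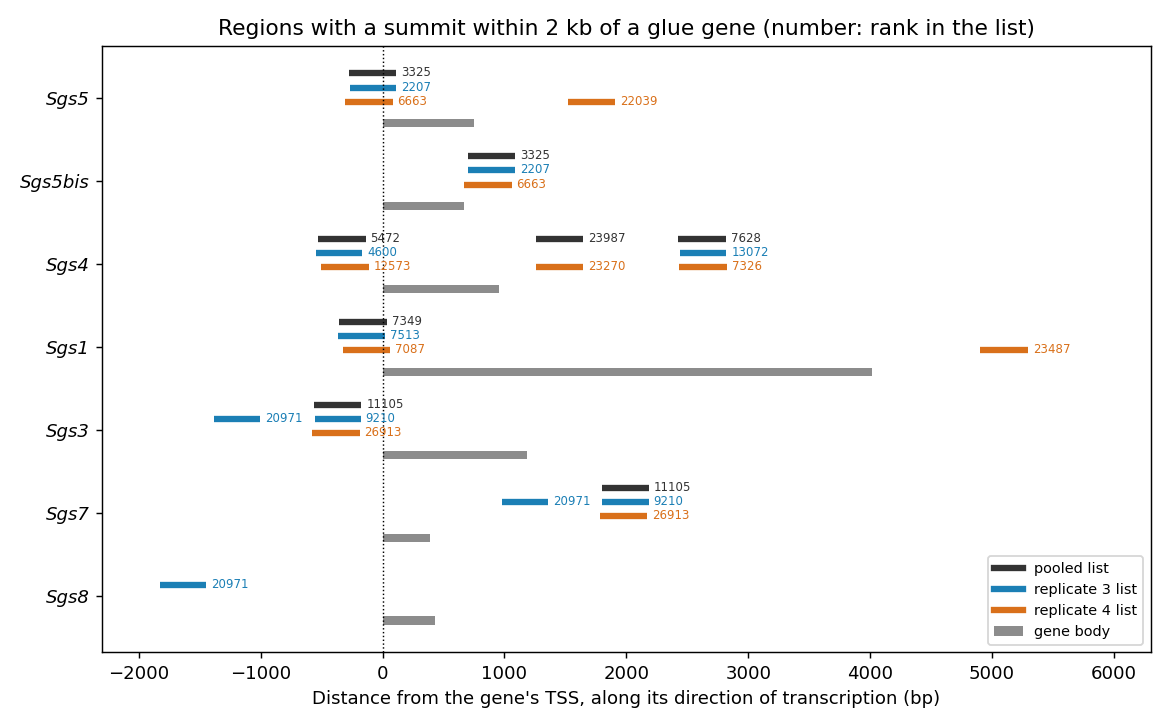
Regions with a summit within 2 kb of each glue gene, drawn by distance from that gene's TSS in bp along its direction of transcription, in the pooled list and in the lists of replicates 3 and 4, with the rank of each region beside it; grey bars are the gene bodies. At Sgs5, Sgs4, Sgs1 and Sgs3 all 3 lists have a region upstream, and the regions drawn at Sgs5bis and Sgs7 are the same ones seen from the neighbouring gene.

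The Sgs5 region was the strongest of the glue genes in the pooled list and in both replicates. Sgs5 encodes a small glue protein, and Sgs5bis is its neighbour and paralogue. The region (3R 17595085 to 17595474) lies in the stretch between both genes, with its pooled summit 223 bp past the 3′ end of Sgs5bis. Its signal (a value given by the authors for each region) was 95.5 in the pooled list, 55.6 in replicate 3 and 40.2 in replicate 4, on scales that differ between lists. It ranked 3325 in the pooled list, 13 places below the last IDR peak, 2207 in replicate 3 and 6663 in replicate 4. When the list of replicate 3 was cut at as many regions as the IDR list has, it gave 2 of 7 glue genes (Sgs5 and Sgs5bis), against 25.4% of all genes. In the list of replicate 4 cut at the same rank, no glue gene had a summit within 2 kb, against 23.2%. The replicates thus place this region on opposite sides of that rank.

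The Sgs4 region came next in the pooled list. Sgs4 is the glue gene of the X and a classic case of a larval gene whose upstream sequence controls its expression in the gland. Its upstream region (X 3249560 to 3249949) had a signal of 72.3 and rank 5472 in the pooled list, 39.5 and rank 4600 in replicate 3, and 26.3 and rank 12573 in replicate 4. The summit lies between Sgs4 and Pig1, a gland gene on the other strand, 466 bp upstream of the TSS of Pig1, and like both genes it is within an intron of dnc. Sgs4 also had regions past its 3′ end. The farther of them, 1669 bp past the end of the gene (X 3252514 to 3252903), had rank 7628 in the pooled list, 13072 in replicate 3 and 7326 in replicate 4, where it ranked above the upstream region. The nearer, 500 bp past the end, was weaker, with rank 23987 in the pooled list and 23270 in replicate 4, and replicate 3 had no region there.

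The Sgs1 region varied least between replicates. Sgs1 encodes the largest of these proteins, a mucin-like one, and is the longest of the 7 genes (4015 bp). Its region (2L 4937055 to 4937444) had a signal of 61.0 and rank 7349 in the pooled list, 31.1 and rank 7513 in replicate 3, and 38.7 and rank 7087 in replicate 4. Replicate 4 alone had a further weak region 1086 bp past the 3′ end of Sgs1 (rank 23487), 233 bp upstream of the TSS of synr.

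The Sgs3 region was the weakest of the 4. Sgs3 encodes a mucin-like glue protein that is widely used, fused to GFP, to follow glue secretion. Its upstream region had a signal of 47.4 and rank 11105 in the pooled list, 28.0 and rank 9210 in replicate 3, and 15.3 and rank 26913 in replicate 4, near the end of that list. The region overlapped an annotated transposable element, as 2.50% of pooled regions on the arms did, and whether the element affects the signal was not tested. Sgs7 and Sgs8, which encode small cysteine-rich glue proteins, had no region of their own. For Sgs7 the nearest region was a weak one of replicate 3 alone (rank 20971), 782 bp past its 3′ end. That region lay 1635 bp upstream of the Sgs8 TSS and 440 bp upstream of that of CG33272. The Sgs3 region was 1606 bp past the 3′ end of Sgs7.

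By rank, the order in the pooled list was Sgs5, Sgs4, Sgs1 and Sgs3. Sgs5 came first and Sgs3 last in both replicates. Sgs4 and Sgs1 changed places between them, with the upstream region of Sgs4 ahead in replicate 3 (4600 against 7513) and behind in replicate 4 (12573 against 7087), so their order does not hold against the spread of the replicates.

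**Figure D2:**
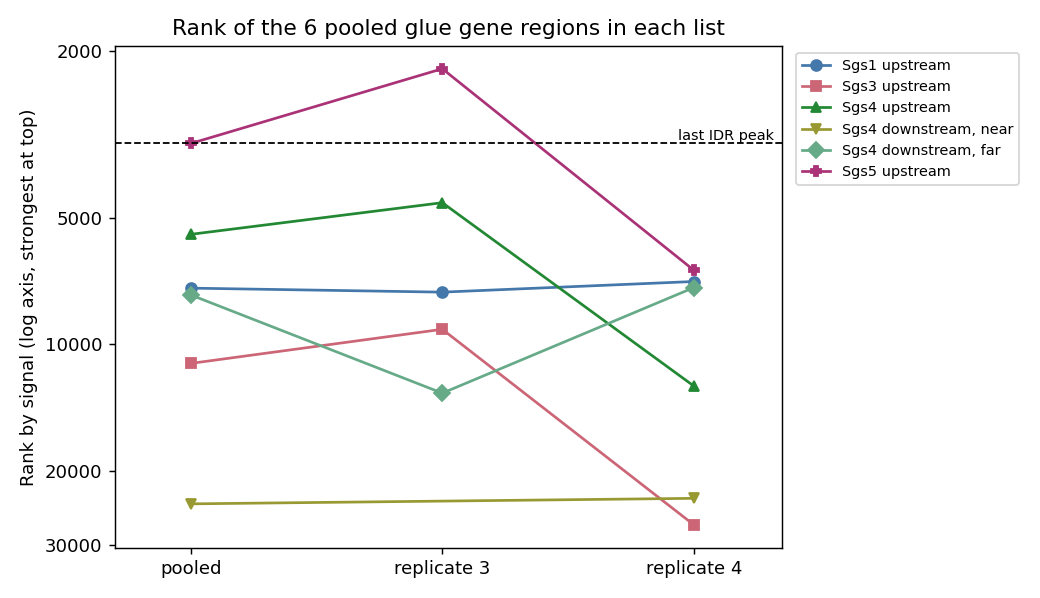
Rank by signal, on a log axis with the strongest at the top, of the 6 pooled regions within 2 kb of glue genes in the pooled list and in replicates 3 and 4; lines join the values of the same region, and the dashed line is the last IDR peak. The Sgs5 region is above the line in replicate 3 and below it in replicate 4, and the nearer downstream region of Sgs4 has no point in replicate 3.

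The upstream regions of Sgs3, Sgs4 and Sgs5 ranked higher in replicate 3 than in replicate 4 by similar ratios. The rank in replicate 4 was 3.02 times that in replicate 3 for Sgs5, 2.92 times for Sgs3 and 2.73 times for Sgs4, which is 1.59, 1.55 and 1.45 on the log2 scale. For Sgs1 the log2 ratio of ranks was -0.08. Among the 6771 pooled regions of like rank found in both replicates, the median log2 ratio was 0.09, with quartiles of -0.80 and 0.98. Of the 4 upstream regions, 3 thus lay beyond the upper quartile, and Sgs1 was near the median. The farther downstream region of Sgs4 went the other way, with a log2 ratio of -0.84. With 1 list per replicate this difference has no replicate check, and whether depth or the share of gland tissue differed between the replicates was not tested.

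**Figure D3:**
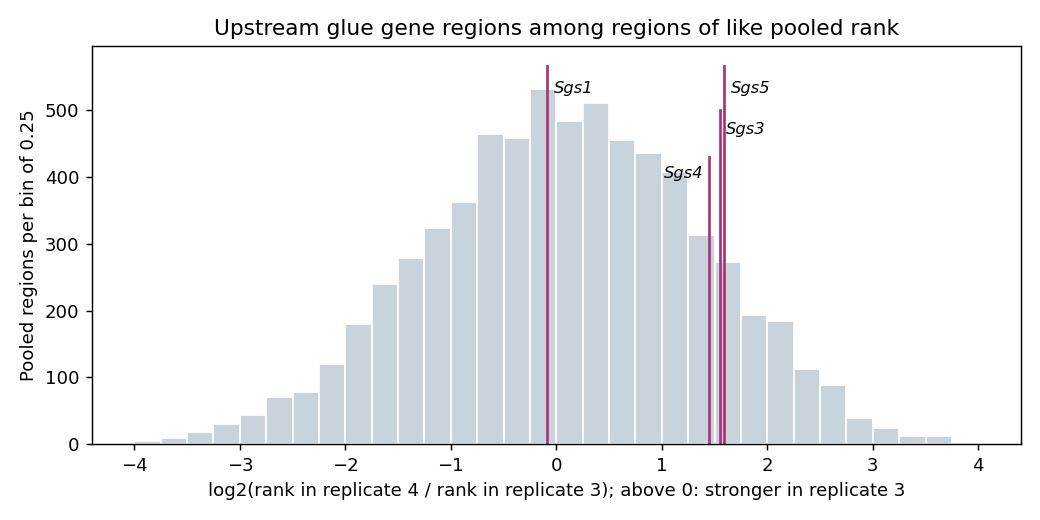
Histogram of log2 of the rank in replicate 4 over the rank in replicate 3 for the 6771 pooled regions ranked 3325 to 11105 that both replicates had, in bins of 0.25, with the upstream glue gene regions as vertical lines. Sgs4, Sgs3 and Sgs5 stand together between 1.45 and 1.59, and Sgs1 at -0.08.

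Set against other genes, the glue genes with a pooled region were of middling strength. Of 13945 protein-coding genes, 8405 had a pooled region within 2 kb, and the median rank of the strongest such region was 5141, with quartiles of 1893 and 13491. The strongest regions of Sgs5 and Sgs4 ranked 3325 and 5472, near that median, and those of Sgs1 (7349) and Sgs3 (11105) ranked lower. Of those 8405 genes, 38.2% had a region ranked as high as that of Sgs5 or higher, 51.7% as that of Sgs4, 59.5% as that of Sgs1 and 69.9% as that of Sgs3. Among the 2418 genes with a summit within 500 bp upstream in all 3 lists, the median pooled rank of that upstream region was 3906, and 44.9%, 63.2%, 73.2% and 87.1% ranked as high as Sgs5, Sgs4, Sgs1 and Sgs3 or higher. Only the Sgs5 region was thus above the middle of that group.

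**Figure D4:**
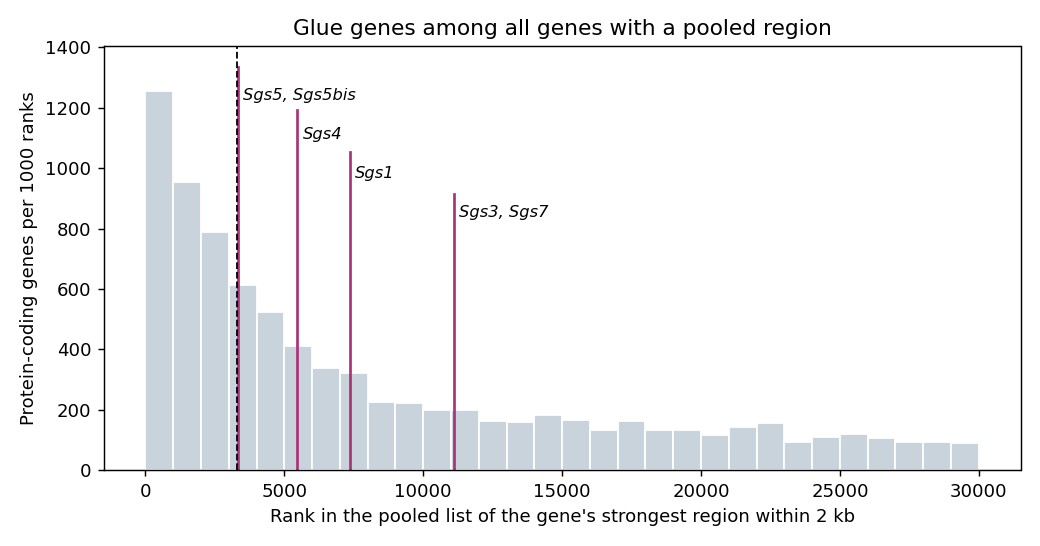
Number of protein-coding genes by the pooled rank of their strongest region within 2 kb, in bins of 1000 ranks, for the 8405 genes that have 1; vertical lines mark glue genes and the dashed line the last IDR peak. The glue genes lie between ranks 3325 and 11105, all to the right of the dashed line, and Sgs8 has no pooled region.

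The nearest IDR peaks of the loci belonged to the surroundings of other genes. For Sgs1 it was 4029 bp away (2L 4945435 to 4945595, signal 295, rank 310), 91 bp upstream of the TSS of the mitochondrial ribosomal protein gene mRpL24. For Sgs4 it was 4676 bp away in an intron of dnc (X 3255521 to 3255910, signal 162, rank 1126), 352 bp upstream of a dnc TSS. For the cluster of Sgs3, Sgs7 and Sgs8 it was 17566 bp from Sgs8, 18460 bp from Sgs7 and 20820 bp from Sgs3, in an intron of chrb (3L 11491206 to 11491595, signal 122, rank 2048), an inhibitor of TOR signalling. For Sgs5 it was 23952 bp away (3R 17619869 to 17620258, signal 116, rank 2291), 103 bp downstream of the TSS of a proline tRNA gene, and CG14326 had the nearest protein-coding TSS, at 964 bp. The median distance from a protein-coding gene to the nearest IDR summit was 12064 bp, with quartiles of 2575 and 32379 bp. All 7 distances fell between these quartiles. These 4 peaks ranked 286 to 3181 in replicate 3 and 364 to 3475 in replicate 4.

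The upstream regions of Sgs3, Sgs4 and Sgs5 held a forkhead core near the summit, and only that of Sgs5 held an E-box there. Within 50 bp of the summit on either side, TGTTTNC was found on either strand in 3 of the 4 upstream regions, where 11.6% of all 29975 pooled regions on the arms held it in a window of the same length. Sgs4 had GAAAACA with its first base at position -337 from the TSS, across the summit itself. Sgs5 had TGTTTGC at -121 and its reverse complement, GCAAACA, at -105, so it held 2 cores in opposite orientation. Sgs1 had no match to TGTTTNC within the window or the whole region, though its printed sequence holds TGTTTAT, which differs in the last letter. The Sgs4 regions past the 3′ end had none either, so 3 of the 6 pooled regions held the core. In wider windows the count stayed at 3 while the share of all pooled regions rose to 22.3% within 100 bp of the summit and 38.1% in whole regions.

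Any E-box (CANNTG) was found in 1 of the 4 upstream windows, that of Sgs5, and in 2 of all 6, against 35.8% of all pooled regions. The Sgs5 window held CAGATG at -89 and CAACTG at -57 from the TSS. The other window with E-boxes was the weak downstream region of Sgs4 nearer to the gene, with 3. Within 100 bp of the summit, Sgs1 had CAAATG at -96 and CACATG at -79 from the TSS, and Sgs4 had CAGCTG at -410. E-boxes were then present in 4 of the 6 regions, against 60.4% of all pooled regions, and Sgs3 still had none. Of the motifs searched in the 50 bp on either side, the E-box forms CAGCTG (3.67% of all pooled regions), then CATATG (3.74%) and then CACGTG (1.02%) were in none of the 6. Neither were the Senseless core AAATCA (13.2%), the nuclear receptor site AGGTCA (1.63%) or the GAGAG repeat (11.6%). In whole regions AAATCA was present in 3 of the 6 (41.7% of all pooled regions), GAGAG in 2 (38.6%), and CAGCTG (13.9%) and also CATATG (13.4%) in 1 each. GC content in these windows was 30.7% for Sgs1, 32.7% for Sgs3, 42.6% for Sgs4 and 40.6% for Sgs5, around the median of 34.7% over all pooled regions. These matches describe letters in 4 windows and show no site in use.

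Promoters were taken from 250 bp before to 50 bp after the TSS. All 7 glue genes had the TATA box sequence TATAAA on the gene's strand there, against 32.1% of the promoters of all protein-coding genes. Matches were counted at any position of this window, so neither share is one of TATA boxes in use. Its first base was at -33 from the TSS in Sgs1, -30 in Sgs7, -29 in Sgs5bis, -28 in Sgs5 and Sgs8, -46 in Sgs3 and -14 in Sgs4, and Sgs7 had 3 more matches further upstream. The forkhead core was found in the promoters of Sgs3, Sgs4, Sgs5 and Sgs5bis, 4 of 7, against 30.0%. Any E-box was found in all 7, against 77.2%. AAATCA was present in the promoters of Sgs4 and Sgs5 (33.5% of all), AGGTCA in that of Sgs5bis (5.88%) and GAGAG in that of Sgs3 (29.7%). Sgs5bis thus had TATAAA and a forkhead core in its promoter and no region with a summit upstream of it in any list. Sgs1 had an upstream region in the pooled list and in both replicates. It had no match to TGTTTNC, the only form of the forkhead core that was searched.

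Of the other secreted gland genes Eig71Ee, ng1, ng2, ng3, ng4 and Pig1, none of 6 had an IDR summit within 2 kb, against 22.9% of all genes, a difference that 6 genes are too few to show. A pooled region was present at 2 of the 6, against 60.3% of all genes. They were Pig1, which shares that of Sgs4, and Eig71Ee with rank 17623. The ng genes, which lie near Sgs4 on the X, had no pooled region. A region of replicate 3 alone, at rank 22744, was within 2 kb of ng2 and ng3.

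Of 8 regulators of gland or glue genes, 6 had an IDR summit within 2 kb, against the 22.9% of all genes. The list was written with earlier results of these data known, so the count is a description and not a test. Of the 6, EcR (81215 bp), br (89738 bp) and CrebA (17820 bp) are long genes that offer more room for a summit. EcR, which encodes the ecdysone receptor, had the highest signal (244, rank 477), followed by CrebA, a regulator of secretory genes (190, rank 787). Then came fkh (142, rank 1490), usp, the receptor's partner (125, rank 1950), br, which encodes Broad (118, rank 2181), and da, the common partner of bHLH factors (116, rank 2266). The strongest of the 3 IDR summits of br was 42068 bp from the nearest TSS of the gene. For EcR, usp, fkh, da and CrebA this distance was 39 to 1784 bp. The sage gene had no region within 2 kb in any list, and sens, which encodes the zinc finger factor Senseless, had a pooled region of rank 12602.

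Of 12 genes for the maturation and release of glue granules, 6 had an IDR summit within 2 kb, against 22.9% of all genes. This list too was written with earlier results known, so its count is not a test. Among the genes with a summit were Pgant9, an enzyme that starts O-glycosylation and acts on Sgs3 (signal 314, rank 262), and dia, a formin (180, rank 886). The others were Rab11 (153, rank 1285), the syntaxin gene Syx1A (135, rank 1670), Rho1 (131, rank 1776) and zip, a myosin heavy chain gene (108, rank 2614). Pgant9 spans 59682 bp and its peak was 6298 bp from the nearest TSS. The genes zip (21396 bp) and dia (9910 bp) also offer more room for a summit. No IDR summit was found near hob, Snap24, Rab1, Rab8, AP-1mu or Chc. Rab8 had a strong region in each replicate (rank 861 in replicate 3 and 1261 in replicate 4) although its strongest pooled region ranked 6640, and Rab1 and Chc had pooled regions of rank 4236 and 4364.

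The genes whose strongest pooled region had the most similar ranks in both replicates were found over 6272 or 6273 candidates by the sum of absolute log2 differences of rank in replicates 3 and 4. For Sgs5 the closest were CG42342 (2154 and 6608, sum 0.05) and CG30269 (2053 and 6846, sum 0.14). For the upstream region of Sgs4 they were Ir48c (4575 and 12942, sum 0.05) and CycD (4497 and 12169, sum 0.08). For its farther downstream region they were CG17570 (sum 0.04) and CG14480 (sum 0.06). CAH7 (7439 and 7103, sum 0.02) and CG17598 (sum 0.06) were closest to Sgs1, and VepD (9149 and 26094, sum 0.05) and CG2209 (sum 0.07) to Sgs3. With 2 samples such likeness is easily met.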

How the data were processed

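Per the deposited text, the authors made lists of peaks and background regions for each replicate and for the pooled replicates, against a control alignment, and a list that passed their IDR threshold. The aligner, the peak caller and the depth were not given in the sources used here. No value therefore carries a counting error of reads. The deposited signal of a region (its scaling is not stated) served to rank regions inside each list. The deposited value read as −log10 q, which no header names, served for an alternative ranking and is printed for the upstream regions. The dm3 lists and the control were not used here. The deposited summit offset gave the summit, written from 1 on dm6.

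Genes came from Ensembl release 115, and promoter and region sequence from the RefSeq Release 6 genome. Regions outside the main arms were left out of backgrounds. Python 3.11.15, pandas 2.3.3, numpy 2.4.6 and scipy 1.17.1 were used. Distances are from the gene body unless a TSS is named. Replicate regions were matched to pooled regions by overlap of at least 1 bp. Motifs were searched on both strands, also where they overlap each other (CANNTG includes the 3 E-box forms named). The assignment code was tested on simulated data. Intervals are exact (Clopper-Pearson). No groups were compared, so there is no test between groups, and with 1 value per list no p-value is given. Alternatives varied the window, the distance, the list cut, the ranking and the motif window. The members and the lists were chosen with earlier results of these data known. Named genes are the members, genes at their regions and nearest IDR peaks, the 2 genes most alike per pooled region found in both replicates, and list genes with an IDR summit within 2 kb. List genes without such a summit are also named, to account for every member of each list, which was decided after their values were seen. The sequence of 1 upstream region is not reported here.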

Additional observations from a re-analysis of the deposited data

How the results depend on the processing

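The count of 0 glue genes with an IDR summit within 2 kb stayed at 0 with a window of 1 kb, with distances from the TSS, with any overlap and in the stronger part (50%) of the IDR list. It was 2 with a window of 5 kb (the peaks near Sgs1 and Sgs4). No IDR list exists for 1 replicate, so the list of each replicate was instead cut at as many regions as the IDR list has. The count was then 2 in replicate 3 (Sgs5 and Sgs5bis) and 0 in replicate 4. The 6 glue genes with a pooled region became 5 within 1 kb, 7 within 5 kb and 4 among the strongest 10000 regions. The 6 with a region in both replicates changed to the same counts. Shares of all genes are not given for these settings. The 4 genes with an upstream region in all 3 lists became 2 within 250 bp and 2 among the strongest 10000 regions of each list; the share of all genes was then 11.3% and 10.8%. Windows with an E-box were 4 within 100 bp of the summit and 5 in whole regions, where 83.6% of all pooled regions had 1. The forkhead core stayed at 3 regions in both, but AAATCA went from 0 to 3 and GAGAG from 0 to 2 in whole regions. The strongest pooled region of each gene was also ranked in single replicates. Its rank ranged from 2207 to 6663 at Sgs5 and Sgs5bis, and from 4600 to 12573 at Sgs4. At Sgs1 it ranged from 7087 to 7513, and at Sgs3 and Sgs7 from 9210 to 26913. In replicate 4 the farther downstream region of Sgs4 ranked above its upstream region, at 7326. In the cut replicate lists, distances to the nearest summit were 4058 to 4078 bp for Sgs1, 20818 to 20820 for Sgs3 and 4596 to 4768 for Sgs4. They were 81 to 59820 bp for Sgs5 and 224 to 58844 for Sgs5bis. For Sgs7 they were 18458 to 18460 bp, and for Sgs8 17564 to 17566 bp. In the same cut lists, 4 to 5 of 8 regulators, 5 to 7 of 12 granule genes and 0 of 6 other secreted genes had a summit within 2 kb. Among genes of up to 5 kb, the shares of all genes were 17.5% for an IDR summit, 52.4% for a pooled region and 14.9% for an upstream region. No paired analysis was possible because there is 1 group. Read depth is unknown, so what it limits could not be given.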
